A study of Mus musculus with 28 samples.

Results

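Doxycycline-driven MyoD without small molecules was followed from day 4 to day 8 in fibroblasts, using 4 of the 28 libraries of an ATAC-seq series: 2 labelled Dox+ day 4 and 2 labelled Dox+ day 8. The cells, labelled MEF14, were mouse embryonic fibroblasts taken at E13.5. They carried a doxycycline-inducible MyoD at the Col1a1 locus (Col1a1-tetO-MyoD), its activator rtTA at the Rosa locus (Rosa-rtTA) and the reporter Pax7-nGFP, so every MEF14 group holds the transgenes whether or not MyoD was induced. The labels name no sort for the Dox+ cells, so each library is read as the whole culture, in which fewer open cells and less opening per cell cannot be told apart. Per the labels' protocols the Dox+ medium held 2 µg/ml doxycycline and 10 ng/ml basic FGF and was meant to give myotubes, the fused cells of muscle. Forskolin (5 µM), RepSox (5 µM) and CHIR99021 (3 µM), here read as the FRG of the labels, were left out. The groups used for reference were MEF14 cells at day 0, given doxycycline with FRG (Dox+FRG, days 2 to 8, and cells labelled GFP at days 8 and 10), or given FRG alone for 8 days, and quiescent and activated satellite cells, the stem cells of adult muscle, here from adult Pax7-nGFP mice. Basic FGF at 10 ng/ml is listed for the Dox+FRG and FRG-alone cells as well, and none is listed for day 0. Fibroblasts labelled MEF10, given MyoD+FRG or MN+FRG for 6 days, complete the 24 other libraries, and the labels do not say how MEF10 differs from MEF14 or what MN is. Each group had 2 libraries. Nothing in the labels says whether these came from separate cultures, so each p-value covers only the spread between libraries, which may be technical.

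MyoD is a basic helix-loop-helix transcription factor that binds E-box sequences, also in closed chromatin, and can turn a fibroblast into a skeletal muscle cell. Such a conversion has 2 sides: regulatory regions used by muscle cells open, and those that keep up the fibroblast state close. ATAC-seq reads both, because a transposase cuts DNA only where nucleosomes leave it exposed. Forskolin raises cyclic AMP, RepSox blocks the TGF-beta receptor kinase and CHIR99021 inhibits GSK3. No gene annotation or sequence of mm9, the build of the peak lists, was used here, so regions are given by position, and marker genes of muscle and fibroblasts were not looked up. The state of the cells was read instead from regions that day 0 fibroblasts and satellite cells called.

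The deposited data were lists of peaks per library, without read counts or peak heights, so sequencing depth is unknown. Dox+ day 4 had 89871 and 97854 peaks and Dox+ day 8 had 108663 and 130916, so both later lists were longer than both earlier ones. Most peaks of a list shared 1 width (78 and 79 bp at day 4, 82 and 88 bp at day 8), and the others were wider and are called extended here. Extended peaks numbered 21098 and 22195 at day 4 and 22505 and 26838 at day 8. The common width was 61 and 63 bp in FRG-alone lists and 153 and 167 bp in day 0 lists. It was 180 and 172 bp in Dox+FRG day 8 and 182 and 173 bp in activated satellite cell lists. Extended peaks made up 31.59% and 32.05% of the FRG-alone and 11.74% and 9.671% of the day 0 lists. Dox+ lists were thus closer in common width to FRG-alone lists than to the others named. How far peak width enters the comparisons between groups was not tested. Longer lists can add calls of any kind. An alternative with equal list lengths kept only the widest peaks of each list, so it changed peak width too. How far list length alone enters each difference between the days was not tested.

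Overlapping peaks (1 bp or more) of the 4 libraries were joined, which gave 154507 regions. A region counts as called in each library with a peak inside it. All 4 libraries called 68969 regions, 44.6% of the total. Gained regions, called in both day 8 and neither day 4 library, numbered 16685 (10.8% of all regions). Lost regions, called in both day 4 and neither day 8 library, numbered 2554 (1.65% of all regions), so there were 6.53 gained regions for each lost one. Of the regions that both day 4 libraries called, 3.29% were missing from both day 8 lists, and of those that both day 8 libraries called, 17.2% were missing from both day 4 lists. The replicates of a day differed as well: 31073 regions were called in 1 of the 2 day 4 libraries and 43445 in 1 of the 2 day 8 libraries. The most common of these patterns, with 21732 regions, was a call in day 8 replicate 2 alone, the longest list. With 1 library standing for its day the counts are higher by construction. Leaving out day 8 replicate 1 gave 39128 gained and 4131 lost regions, and leaving out day 8 replicate 2 gave 25228 and 7709. For day 4 the counts were 21157 and 9987 when replicate 1 was dropped, and 24371 and 7409 when replicate 2 was. Gained regions outnumbered lost ones in each of these.

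**Figure D1:**
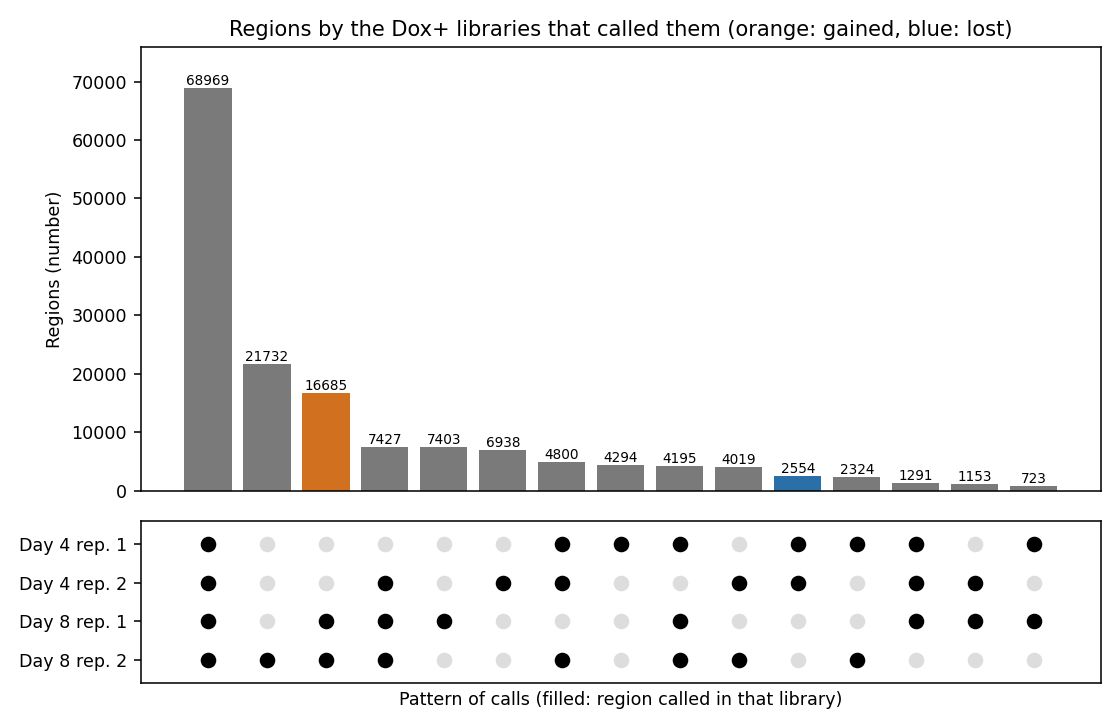
Number of regions (bars, vertical axis) for each of the 15 patterns of calls over the 4 Dox+ libraries, with filled dots marking the libraries that called the region. The 16685 gained regions (orange) are the most common pattern that separates the days, and the 2554 lost regions (blue) are fewer than the 21732 called in day 8 replicate 2 alone.

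Libraries of the same day still shared more than libraries of different days. The Jaccard index (the shared part of all regions that a pair of lists holds) was 0.676 between the day 4 libraries and 0.673 between the day 8 libraries. Across days it ran from 0.556 to 0.595, below both. Day 8 libraries had a higher index than day 4 libraries with MEF14 cells that had no doxycycline. Their index with FRG-alone cells was 0.313 to 0.336, against 0.264 to 0.273 at day 4, and with day 0 fibroblasts 0.365 to 0.377 against 0.345 to 0.350. With activated satellite cells the order was the other way, at 0.376 to 0.425 for day 4 and 0.321 to 0.402 for day 8, and for each satellite cell library both day 4 values lay above both day 8 values. With Dox+FRG day 8 it was the other way as well for each reference library: its replicate 1 gave 0.528 and 0.517 with the day 4 libraries and 0.459 and 0.419 with the day 8 libraries, and its replicate 2 gave 0.427 and 0.411 against 0.367 and 0.326. The index also drops with peaks that only the longer list holds, and the day 8 lists were longer. Of the peaks of activated satellite cell replicate 1, day 4 lists held 80.02% and 82.03% and day 8 lists 85.55% and 89.26%. For its replicate 2 these were 73.58% and 75.79% against 79.54% and 83.84%. For Dox+FRG day 8 replicate 1 they were 80.97% and 83.89% against 82.59% and 87.28%, so the days overlapped.

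Nearly all changed regions were narrow. Of the gained regions 87.6% had a peak of the common width in both day 8 libraries and 640 were extended in both. Of the lost regions 93.9% were of the common width in both day 4 libraries and 25 were extended in both. In regions called by all 4 libraries, by comparison, 29.3% to 32.0% of the peaks were extended. A narrow peak can miss a neighbour by a few bases, which touched the lost regions more. A day 8 peak lay within 500 bp of 400 lost regions (15.7%), and a day 4 peak within 500 bp of 645 gained regions (3.87%). Without these, 16040 gained and 2154 lost regions were left. The median gap from a gained region to the nearest day 4 peak was 5.75 kb, and from a lost region to the nearest day 8 peak 2.92 kb.

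The gained regions were found in fibroblasts before induction more often than the lost ones. Day 0 libraries called 29.4% and 28.2% of the gained regions, and 11.5% and 10.2% of the lost regions. In each case the gained and lost shares lay further apart than the replicates. Both day 0 libraries called 4005 gained regions, so these were open in fibroblasts, absent from both day 4 lists and present in both day 8 lists. Of these, 2129 were called in no satellite cell library, which is 12.8% of the gained regions, against 2.94% of the lost and 7.40% of all regions. A further 11086 gained regions (66.4%) were called in neither day 0 library. The share of gained regions seen at day 0 was not high in itself: of all 154507 regions, both day 0 libraries called 33.1%, against 24% of the gained and 7.99% of the lost regions.

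Of the 24 other libraries, those of cells given FRG without doxycycline called the most gained regions, at close to their share of all regions. FRG day 8 libraries called 46.6% and 45.7% of the gained and 20.9% and 20.3% of the lost regions. These are the longest lists of the series, with 134997 and 133267 peaks, and they called 48.7% and 48.4% of all 154507 regions and 63.6% and 63.4% of those in all 4 Dox+ libraries. Both FRG libraries together called 42% of the gained and 45.0% of all regions. Among gained regions extended in both day 8 libraries, 59.5% were called by both FRG libraries and 23.0% by both FRG and no day 0 library. The second share was 10.8% over all regions, most of them narrow. Among the 25 lost regions extended in both day 4 libraries these shares were 44.0% and 20.0%, so the second was close to that of the gained. Wide regions in general were called more often. FRG-alone libraries called a mean of 84.25% of the regions extended in all 4 Dox+ libraries, against 63.05% of the gained regions extended in both day 8 libraries. The 2 MEF10 libraries labelled MN+FRG called 38.2% and 38.1% of the gained and 15.8% and 16.0% of the lost regions, against 46.2% and 46.1% of all regions.

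Cells given doxycycline with FRG went the other way. Dox+FRG libraries called 21.9% and 15% of the gained regions at day 2, 19.6% and 9.58% at day 4, 9.84% and 9.80% at day 6, and 9.24% and 5.17% at day 8. Of the lost regions they called 12.3% and 9.05% at day 2, 19.4% and 11.5% at day 4, 20.0% and 21.8% at day 6, and 24.4% and 14.5% at day 8. Of all regions the day 8 libraries called 41.0% and 31.4%, so both sets were called less there than the average region, the gained ones least. The list lengths of these libraries differ, so the gained share was divided by the lost share within each library. This ratio was 2.56 and 2.77 in day 0 fibroblasts, 1.78 and 1.66 at day 2 of Dox+FRG, 1.01 and 0.836 at day 4, 0.492 and 0.449 at day 6, and 0.379 and 0.358 at day 8. Libraries of neighbouring days did not overlap, and each later day lay lower. The ratio was 0.451 and 0.471 in day 8 GFP cells, 0.542 and 0.580 in day 10 GFP cells, and 2.23 and 2.25 in FRG-alone cells. Set against each other, the gained regions were the more often called set in day 0 and FRG-alone cells and the lost regions in late Dox+FRG cells. Neither set reached a library's share of all regions in these 3 groups. Satellite cells lay between, at 1.41 and 1.58 in the quiescent and 1.11 and 1.33 in the activated libraries.

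For Dox+FRG day 8 the ratio of the group means, 0.371, stayed below 1 in every alternative run, from 0.265 without Dox+ day 8 replicate 1 to 0.685 without Dox+ day 4 replicate 2. For day 0 it was 2.66, and it fell below 1, to 0.883, where gained and lost regions were defined on extended peaks alone, and to 0.861 with equal numbers of the widest peaks. Without Dox+ day 8 replicate 1 or 2 it was 1.48 and 1.42. For FRG-alone cells it was 2.24, and 1.44 and 1.37 without those libraries, 1.05 with extended peaks and 1.02 with equal numbers. The alternatives on peak width count a region that merely widened or narrowed as gained or lost. For regions extended in both libraries of a day and without any peak in the other day the day 0 ratio was 1.30, with 25 lost regions behind it.

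**Figure D2:**
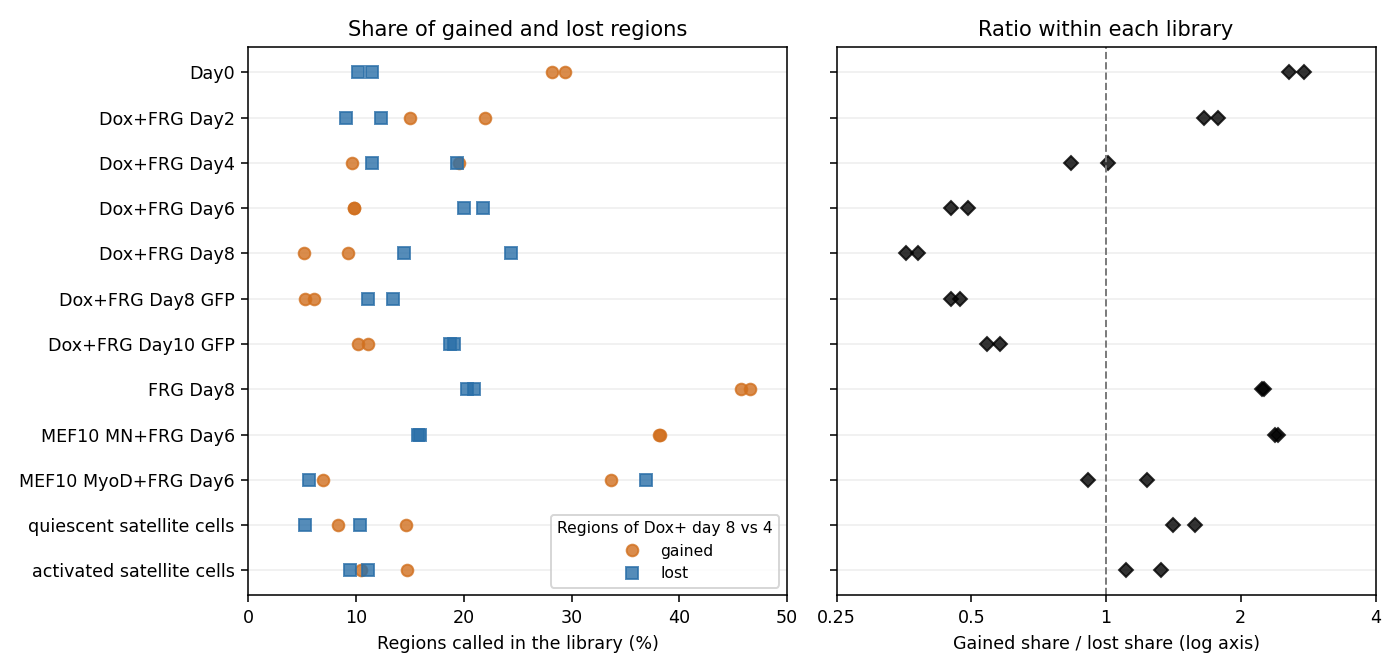
Left, percent of the gained (orange circles) and lost (blue squares) Dox+ regions called in each of the 24 other libraries, 2 per group. Right, the gained share divided by the lost share in the same library, on a log axis with 1 dashed, which goes from 2.56 and 2.77 at day 0 to 0.379 and 0.358 at Dox+FRG day 8.

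Next, regions were defined without the Dox+ lists. Regions were merged from the 6 day 0 and satellite cell libraries alone and classed by which of them called a region. Fibroblast-only regions (both day 0 and no satellite cell library, 17793 regions) stand for the starting cell. Dox+ libraries called 27.7% and 30.6% of them at day 4 and 44.7% and 59.9% at day 8. Both day 8 values lay above both day 4 values, a difference of 23.1 percentage points (29.2% ± 2.09 and 52.3% ± 10.7, SD, n = 2 libraries a day; two-sided exact permutation test, p = 0.333, adjusted p = 0.333). With 2 libraries against 2 no smaller p is possible, so none of the 8 classes tested could pass 0.05, and the same p held for all 8. The day 8 libraries differed from each other by more than the day 4 libraries did, and without day 8 replicate 2 the difference was 15.5 points.

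Activated-only regions (both activated, no quiescent and no day 0 library, 8268 regions) stand for the proliferating muscle precursor. They were called at 75.1% and 77.7% at day 4 and 78.4% and 84.2% at day 8, a difference of 4.89 points. Most of this class was thus already open in both day 4 libraries. Quiescent-only regions (6133) were called at 14.4% and 16.6% at day 4 and 20.2% and 26.6% at day 8, a difference of 7.93 points. Satellite-shared regions, called in all 4 satellite cell and no day 0 libraries (3296), were called at 73.6% and 76.5% at day 4 and 80.9% and 85.5% at day 8. Common regions, called in all 6 reference libraries (18727), were at 96.3% and 96.9% at day 4 and 98.9% and 99.5% at day 8. Day 8 replicate 2 bore much of this: without it the difference was 1.98 points for activated-only and 4.73 points for quiescent-only regions, and without day 8 replicate 1 it was 7.79 and 11.1 points. Every class was thus higher in both day 8 than in both day 4 lists, in the direction of the list lengths. In percentage points the fibroblast-only class differed most, but the classes had unlike room to rise. Their day 4 means were 15.5% for quiescent-only, 29.2% for fibroblast-only, 76.4% for activated-only and 96.6% for common regions.

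The fibroblast-only difference was also present in wide regions. Of 551 fibroblast-only regions that were extended in both day 0 libraries, the Dox+ libraries called 44.5% and 46.6% at day 4 and 58.8% and 77.7% at day 8. Of 128 activated-only regions extended in both activated libraries they called 93.8% and 93.0% at day 4 and 92.2% and 93.8% at day 8, so that the days overlapped and the means differed by -0.391 points. Of 181 such quiescent-only regions they called 19.9% and 22.1% at day 4 and 28.7% and 32.0% at day 8. When the Dox+ lists themselves were limited to the 21098 widest peaks each, fibroblast-only regions were 2.85 points higher at day 8, against 23.1 points with the full lists. The difference was then -1.66 points for activated-only and -7.47 points for common regions.

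Classes also differed in how often a region missing at day 4 appeared at day 8. Of the 11367 fibroblast-only regions in neither day 4 list, 20.7% were in both day 8 lists. The share was 19.3% of 1604 activated-only, 24.2% of 689 satellite-shared and 6.18% of 4936 quiescent-only regions. It was highest, at 68.0% of 400, for common regions. Fibroblast-only and activated-only regions were close here. Of those extended in their own libraries 77 of 249 fibroblast-only (30.9%) and 0 of 6 activated-only regions appeared, and 6 regions are too few to compare the classes. The reverse move was rare: 81 of the 3955 fibroblast-only regions of both day 4 lists (2.05%), 72 of 5968 activated-only regions (1.21%) and 37 of 705 quiescent-only regions (5.25%) were in neither day 8 list.

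Regions were classed by the small molecules as well, from the 4 day 0 and FRG-alone libraries. Regions of both FRG-alone and neither day 0 library (52004) were called at 13.3% and 15.2% in Dox+ day 4 and 20.1% and 26.4% in Dox+ day 8 libraries. Regions of both day 0 and neither FRG-alone library (5814) were called at 35% and 37.7% at day 4 and 45.5% and 58.3% at day 8. Both kinds of region were thus called more at day 8, whichever way they differed between fibroblasts with and without FRG.

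With the small molecules, the fibroblast-only class moved against the Dox+ direction over the same days. Dox+FRG libraries called 30.5% and 16.5% of it at day 4 and 13.9% and 8.17% at day 8, where the Dox+ libraries went from 27.7% and 30.6% to 44.7% and 59.9%. The days 4 to 8 differences were -12.5 points with and 23.1 points without the molecules, and the difference between them was not tested. At day 4 the ranges of both treatments overlapped, and at day 8 they did not. Dox+FRG lists had 70877 and 51536 peaks at day 4 and 67026 and 50608 at day 8, so list length moved little there. Quiescent-only regions, by contrast, were higher at day 8 in both treatments, by 7.93 points without and 6.87 points with the molecules. Activated-only regions differed by -1.80 points with the molecules.

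**Figure D3:**
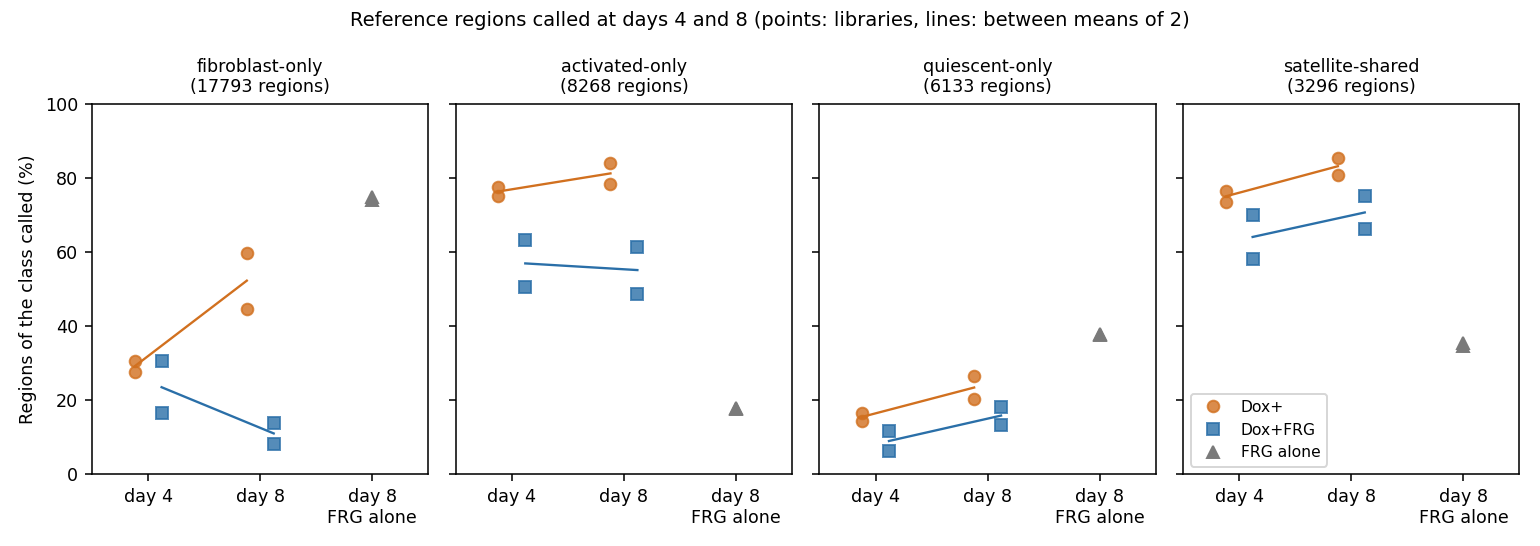
Percent of the regions of each reference class (panels) called in Dox+ (orange circles) and Dox+FRG (blue squares) libraries at days 4 and 8, and in FRG-alone cells at day 8 (gray triangles). Points are libraries and lines join the means of 2. Fibroblast-only regions differ by 23.1 points in Dox+ and -12.5 points in Dox+FRG, while quiescent-only regions differ by 7.93 and 6.87 points.

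Region by region, most regions gained or lost in Dox+ had no peak in Dox+FRG at either day. These comparisons share no library. In regions merged from the 8 libraries, Dox+FRG had 3536 gained (3.97%) and 4993 lost (5.61%) of the 89012 regions it called. Of 16614 regions gained in Dox+, 12471 (75.1%) were called in no Dox+FRG library of either day, against 44.7% of all 160862 regions. Another 754 were lost in Dox+FRG, 4.54% of the Dox+ gained and 15.1% of the Dox+FRG lost regions, and 159 were gained in both, 0.957% and 4.50%. Of 2371 regions lost in Dox+, 1678 (70.8%) were likewise called in no Dox+FRG library of either day. Another 86 were gained in Dox+FRG (3.63% and 2.43%) and 22 were lost in both (0.928% and 0.441%). Among regions that changed in both treatments, more changed in opposite directions than in the same one. Of all regions 3.10% were lost and 2.20% gained in Dox+FRG, and the overlaps were not tested.

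Peak width gave a measure within the regions of all 4 Dox+ libraries, which the choice of gained and lost regions leaves aside. A region widened when its peak was extended in both day 8 and neither day 4 library, and narrowed in the reverse case. Of 68969 regions 1901 widened (2.76%) and 1422 narrowed (2.06%). Dox+FRG day 8 libraries called 68.5% and 53.1% of the widened and 89.1% and 79.0% of the narrowed regions, day 8 GFP cells 44.1% and 40.2% against 69.9% and 67.7%, and activated satellite cells 55.7% and 62.2% against 71.9% and 76.6%. FRG-alone cells had 75.4% and 75.7% of the widened and 72.2% and 71.8% of the narrowed regions, and MEF10 MN+FRG 73.5% and 75.9% against 76.2% and 76.0%. Over all regions in the 4 lists these shares were 72.1% and 58.4% in Dox+FRG day 8, 49.7% and 46.0% in day 8 GFP, 55.1% and 62.2% in activated satellite cell, 63.6% and 63.4% in FRG-alone and 67.3% and 67.4% in MN+FRG libraries. Narrowed regions were thus called more often than widened ones in the Dox+FRG and activated satellite cell libraries named here, and less often in FRG-alone cells, a contrast that was not tested. Day 0 fibroblasts called 62.5% and 61.5% of the widened and 66.7% and 65.6% of the narrowed regions. Within these, regions of both day 0 and no satellite cell library made up 8.57% of the widened and 2.53% of the narrowed regions, and 5.06% of all regions in the 4 lists. Regions of all day 0 and satellite cell libraries made up 21.1% of the widened and 44.7% of the narrowed regions, and 25.5% of all regions in the 4 lists.

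**Figure D4:**
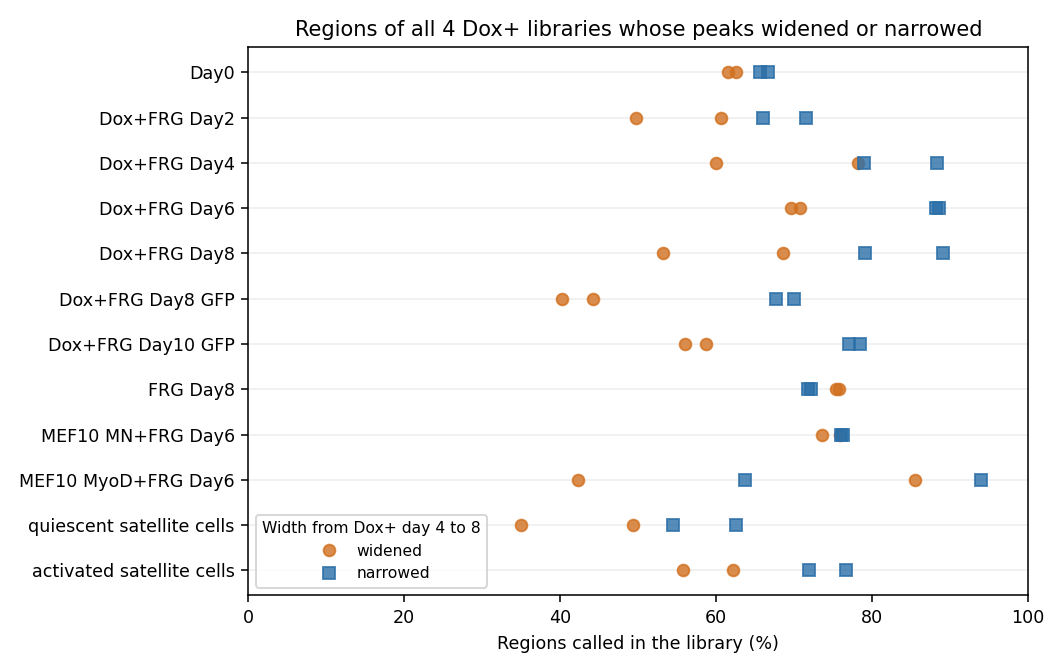
Percent of the 1901 widened (orange circles) and 1422 narrowed (blue squares) regions, all of them called in the 4 Dox+ libraries, that each of the 24 other libraries called, 2 per group. In the Dox+FRG day 8 libraries 68.5% and 53.1% of the widened and 89.1% and 79.0% of the narrowed regions were called, while in FRG-alone cells the values were 75.4% and 75.7% against 72.2% and 71.8%.

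The widest gained regions had unlike histories. The widest lay on chromosome 2 from 132423107 to 132426037 (mm9), with day 8 peaks of 1952 and 2931 bp, and was called in 18 of the 24 other libraries. These were all but the day 0, day 8 GFP and activated satellite cell libraries. Both Dox+FRG libraries of each of days 2, 4, 6 and 8 thus called it, as did the quiescent satellite cell and FRG-alone libraries. The next, on chromosome 5 from 51430952 to 51433070, had peaks of 2043 and 2115 bp and no peak of a day 4 library within 48348 bp. Both libraries of day 0, of each satellite cell group, of Dox+FRG at days 2 and 4 and of day 10 GFP cells called it, and no Dox+FRG library of day 6 or 8 did. The region on chromosome 13 from 24186827 to 24188697 (1861 and 1806 bp) was called in both day 0, both FRG-alone and 1 Dox+FRG day 2 library, and in no satellite cell library. These last regions were open at day 0, absent from the day 4 lists and wide at day 8. The region on chromosome 6 from 97406376 to 97408198 (1768 and 1823 bp) was called in none of the 24 other libraries. The region on chromosome 2 from 128571639 to 128573421 (1739 and 1681 bp) was called in the FRG-alone and MEF10 MN+FRG libraries and nowhere else.

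The widest lost regions were smaller, and a day 8 peak lay close to some of them. The widest, on chromosome 18 from 24454308 to 24455309 with day 4 peaks of 968 and 998 bp, was called in both quiescent satellite cell and both day 10 GFP libraries and in no day 0 or FRG-alone library. The region on chromosome 3 from 67361440 to 67362398 (957 and 917 bp) was called in all Dox+FRG libraries of days 4, 6 and 8 and in both activated satellite cell libraries. Both FRG-alone libraries and 1 MEF10 MyoD+FRG library called this region as well. A day 8 peak lay 180 bp from it. The region on chromosome 10 from 126559919 to 126560806 (884 and 881 bp) was called in both FRG-alone libraries, and that on chromosome X from 155464427 to 155465178 (752 and 720 bp) in 1 other library. On chromosome 2 from 122123149 to 122124456 the day 4 peaks measured 78 and 1308 bp and a day 8 peak lay 18 bp away.

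Gained regions gathered in places more than lost ones, as their larger number allows. Of 21943 windows of 100 kb with at least 1 region, 10226 held a gained and 2333 a lost region. At least 3 gained regions stood in 1550 windows, and at least 3 lost regions in 11. The window with most gained regions lay on chromosome 2 from 102800001 to 102900000, with 8 gained of 14 regions and 4 called in all 4 Dox+ libraries. Day 4 libraries called 4 and 4 of its regions and day 8 libraries 13 and 13. Day 0 fibroblasts called 3 and 2 of the 8 gained regions, FRG-alone cells 5 and 4, Dox+FRG day 8 cells 1 and 1, and activated satellite cells 0 and 0. Of all 14 regions of the window they called, in the same order, 5 and 3, 6 and 7, 2 and 3, and 2 and 3. Their mean shares of all regions of the Dox+ lists were 37.5%, 48.55%, 36.2% and 32.97%, so the FRG-alone counts were near that share. The next windows lay on chromosome 1 from 127300001 to 127400000 (8 of 15 regions gained) and from 175300001 to 175400000 (8 of 15), on chromosome 11 from 114700001 to 114800000 (8 of 21) and on chromosome 5 from 17300001 to 17400000 (7 of 11). Of the 8 gained regions of the second chromosome 1 window, day 0 libraries called 0 and 0 and FRG-alone libraries 3 and 3. Of all 15 regions of that window they called 4 and 3, and 7 and 8.

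Lost regions were densest on chromosome 2 from 163100001 to 163200000, a window with 4 lost and 1 gained among 19 regions. The gained region and 1 of the lost ones were 51 bp apart. Day 4 libraries called 14 and 17 of its regions, day 8 libraries 11 and 14. Of its 4 lost regions, day 0, FRG-alone and quiescent satellite cell libraries called 1 each and activated satellite cell libraries 0. Of all 19 regions of the window these groups called, in the same order, 6 and 6, 7 and 8, 6 and 4, and 6 and 7. The other 4 windows, with 3 lost regions each, lay on chromosome 3 from 100600001 to 100700000, chromosome 19 from 24200001 to 24300000, chromosome 11 from 62300001 to 62400000 and chromosome 10 from 110900001 to 111000000.

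**Figure D5:**
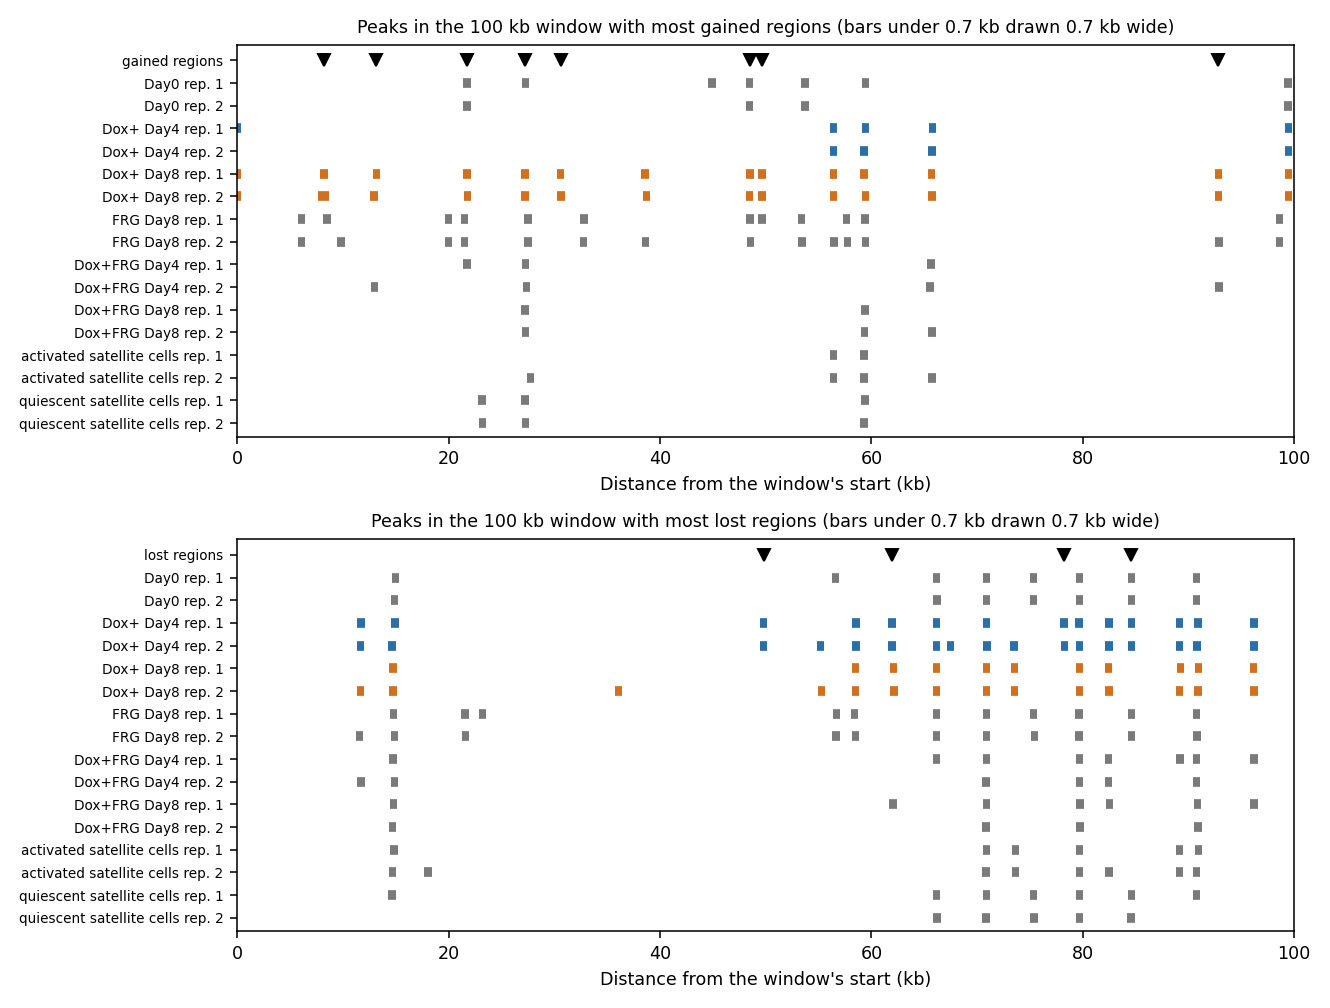
Peaks of each library (bars, rows) in the 100 kb window with most gained regions (top) and with most lost regions (bottom), by distance from the window's start in kb, with triangles at the 8 gained and the 4 lost regions. Dox+ day 4 is blue, Dox+ day 8 orange and other groups gray. FRG-alone libraries hold 5 and 4 of the 8 gained regions and Dox+FRG day 8 libraries 1 and 1. Of all 14 regions of that window they hold 6 and 7, and 2 and 3.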

How the data were processed

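The tools named by the submitters' processing notes are BWA and HOMER, with the build mm9. Tool versions, how reads were filtered or shifted, and the cut-off for peaks were not given in the sources used here. Each reaction took 60000 cells, 13 PCR cycles and fragments of 100 to 1000 bp, per the labels' protocols. The deposited lists give chromosome, start and end per peak, called per library as far as the lists show, with no count, score or p-value. Depth is thus unknown and no interval that needs it is given. Starts are printed counted from 1.

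Lists were merged and compared with Python 3.11.15, numpy 2.4.6 and pandas 2.3.3. Regions came from the 4 Dox+ libraries and not from all 28, since 1 MEF10 MyoD+FRG list has peaks of up to 202465 bp. Merging and calling were tested on simulated lists. Classes, named regions and windows (5 a direction, by peak width and by number of changed regions) were chosen with earlier results of these data known. Class shares were compared by two-sided exact permutation over 6 splits, with Benjamini-Hochberg adjustment. Genes, motifs and sequences planned for were not analysed here, since the tables at hand are of GRCm38.p6. Alternatives were all 28 libraries merged, a 50% overlap, autosomes, extended peaks, equal list lengths, each library left out and a replicate block. Those added after seeing the data are named as such in the closing section.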

Additional observations from a re-analysis of the deposited data

Results flagged for a closer look

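Fibroblast-only regions were called more in both Dox+ day 8 libraries than in both day 4 libraries, and less in both Dox+FRG day 8 libraries than in both Dox+FRG day 4 libraries. The days 4 to 8 difference was 35.6 percentage points larger without the small molecules than with them, and this difference was not tested. Among the 551 fibroblast-only regions extended in both day 0 libraries it was 39.3 points, with 45.5% ± 1.54 and 68.2% ± 13.4 at days 4 and 8 in Dox+ and 39.8% ± 14.6 and 23.1% ± 6.80 in Dox+FRG libraries (SD, n = 2). It was not tested either. Dox+ lists were longer at day 8 than at day 4 and Dox+FRG lists were not. With the 21098 widest peaks of each Dox+ list the Dox+ fibroblast-only difference was 2.85 points, against 23.1 points with the full lists. That setting also drops the narrow peaks and left the Dox+FRG lists whole. The part of list length alone in these differences was not tested.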

How the results depend on the processing

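Gained regions outnumbered lost ones in each of the 11 alternatives run. With extended peaks alone there were 3158 gained and 1536 lost regions, and with the 21098 widest peaks of each list 2542 and 2070. Alternatives added after seeing the data were regions extended in both libraries of a day and absent from the other (640 gained, 25 lost), regions without a peak of the other day within 500 bp, class regions extended in their own libraries, and the ratio of gained to lost shares under every setting. With each library left out in turn, gained regions ran from 21157 to 39128 and lost regions from 4131 to 9987. Of 83 class differences recomputed, 75 kept their sign. With extended peaks alone the common class turned, to -2.27 points. With equal list lengths it was -7.47, day 0 fibroblast regions -1.01, quiescent satellite cell regions -3.40, activated satellite cell regions -3.44, activated-only regions -1.66 and satellite-shared regions -0.349 points, and activated-only regions extended in their own libraries were at -0.391. The cause was not tested. Fibroblast-only and quiescent-only regions kept their sign in all alternatives, but not their size. With extended peaks alone the fibroblast-only difference was 3.97 and the quiescent-only difference 1.97 points, against 23.1 and 7.93 points in the main run. With equal list lengths they were 2.85 and 1.39 points. The ratio for Dox+FRG day 4 (0.945) crossed 1 with all 28 libraries merged (1.25) and without near peaks (1.31). With a library left out it ran from 0.493 (without Dox+ day 8 replicate 1) to 1.41 (without Dox+ day 4 replicate 1), and was 1.19 without Dox+ day 4 replicate 2. The ratio for day 0 did so with extended peaks (0.883) and equal lengths (0.861).

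Same-numbered libraries of days 4 and 8 deviated together at a correlation of 0.00313. With 2 libraries a day this value cannot show whether same-numbered libraries shared a culture or a batch. With the replicate block the fibroblast-only difference was again 23.1 points (exact permutation p = 0.5, the smallest 2 pairs can give), and gained and lost regions are the same by definition.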

Other observations

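Regions of the Dox+ lists found nowhere else in the series were as common among the gained as among the lost ones. None of the 24 other libraries called 5394 gained regions (32.3%) and 827 lost regions (32.4%), against 18.9% of all regions and 3.78% of the regions of all 4 Dox+ libraries. Of the 640 gained regions extended in both day 8 libraries, 154 were among them, and of the 25 lost regions extended in both day 4 libraries 0 were.

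By chromosome, the gained share of the regions went from 8.53% on chromosome X (330 of 3869) to 13.0% on chromosome 16 (730 of 5612), with 12.1% on chromosome 13. The lost share was lowest on chromosome X as well, at 0.905%, and was 1.43% on chromosome 16. Gained regions lay at a median of 9.31 kb from the nearest region of all 4 Dox+ libraries, lost regions at 7.63 kb, and regions of all 4 libraries at 8.35 kb from one another.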
